A study of Mus musculus with 12 samples.

Results

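The genes described here are the 10 that make and modify fatty acids under control of SREBP1: Srebf1, Acly, Acaca, Fasn, Scd1, Scd2, Elovl6, Fads1, Fads2 and Acsl3. They were chosen by name, and all 10 of them were found among the 55202 named genes of the count table and in the table of the authors' own comparison. RNA was sequenced from 12 libraries, which the study describes as coming from tumors grown in Rag1-/- mice, which lack T and B cells. By the study's description, the 6 libraries labelled DMBA3-4 TAM came from tumors of DMBA3-4. This clone was grown from a single cell of a PyMt mammary cancer line after exposure to the carcinogen DMBA. The 6 libraries labelled DMSO3-1 TAM are described as coming from tumors of DMSO3-1, a clone of the same line treated with the vehicle DMSO. Each tumor type is therefore 1 clone, so the effect of DMBA and a difference between clones cannot be told apart. The cells were labelled as tumor-associated macrophages (TAMs) and, by the methods of the study, were sorted as CD45+ CD11b+ F4/80+. The labels describe RNA purified on columns and a SMARTER library kit, whereas the methods of the study describe direct lysis and SmartSeq2. Nothing in the labels or methods says that the libraries came from separate mice, and the p-values below cover the variation among these 12 libraries alone, part or all of which may be technical.

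Fatty acid synthesis starts from citrate, which ATP citrate lyase (Acly) splits in the cytosol to give acetyl-CoA. Acetyl-CoA carboxylase (Acaca) turns this into malonyl-CoA, and fatty acid synthase (Fasn) joins these units into palmitate. Elovl6 then lengthens palmitate, the stearoyl-CoA desaturases Scd1 and Scd2 put the first double bond into saturated chains, Fads2 and Fads1 desaturate the polyunsaturated ones, and Acsl3 joins fatty acids to coenzyme A. SREBP1, the product of Srebf1, is made as a membrane-bound precursor that is cut in the Golgi, and its free end enters the nucleus and switches on these genes. Its close relative SREBP2, from Srebf2, acts mainly on cholesterol genes. Insig1 and Insig2 hold both precursors back in the endoplasmic reticulum when sterols are plentiful, and the oxysterol receptors LXR raise transcription of Srebf1. In macrophages these genes are known for tuning membrane lipids during activation.

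The libraries did not carry the transcripts of the sorted proteins in the amounts that their labels imply. Ptprc (CD45) had 0 to 7 counts per library, and Itgam (CD11b) and Adgre1 (F4/80) had 0 to 3 each. The 12 macrophage markers made up 0.00210% to 0.00487% of a DMBA3-4 library and 0.00110% to 0.00310% of a DMSO3-1 library, against 3.92% of the authors' mean normalized counts. The 7 epithelial markers, nearly all Krt8 and Krt18, made up 0.152% to 0.215% of a DMBA3-4 library and at most 0.173% of a DMSO3-1 library (Epcam at 0 in all libraries), and the 7 fibroblast markers 0.0975% to 0.166% and 0.143% to 0.200%. The 10 adipocyte markers held 0.000570% to 0.00107% and 0.00160% to 0.00247%. Lipe, the hormone-sensitive lipase, carried nearly all of it with 17 to 38 counts against 44 to 85, while Adipoq and Plin1 were at 0 in every library. Milk protein, endothelial, natural killer cell and neutrophil markers were near 0. The adipocyte share and the near-0 endothelial share did not overlap between the groups, while the macrophage, epithelial and fibroblast shares did. Within the fibroblast list, genes went opposite ways. Lum had 182 to 488 counts in the DMBA3-4 libraries against 29 to 88, and Pdgfrb 756 to 1479 against 1737 to 3359. The part of these shares in the results was not tested. Below, the libraries go by their labels as DMBA3-4 and DMSO3-1 libraries, and no value is ascribed to macrophages. In such bulk samples, fewer cells of a type and less RNA per cell cannot be told apart.

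Total counts were 3040452 to 4632817 per library in the DMBA3-4 group and 2752005 to 3978901 in the DMSO3-1 group. On the first principal component DMSO3-1 replicates 1 and 6 stood apart from the other 4 libraries of their group, and DMBA3-4 replicate 5 (at -33.8), and less so replicate 6 (at -52.0), stood apart from the other 4 of theirs (-75.0 to -69.7). Their epithelial marker share also set DMSO3-1 replicates 1 and 6 apart, at 0.165% to 0.173% against at most 0.126% in DMSO3-1 replicates 2 to 5. The labels name no batch. For part of the results, values with some of these libraries left out are given below.

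To show the DNA from which the regulator and the main enzyme of the pathway are read, the stretches before 2 of the RefSeq start sites are printed here (GRCm38.p6, minus strand, read in the direction of transcription). RefSeq promoter windows were at hand for 7 of the 10 genes, in 9 windows of 250 bases before a start. The Srebf1 stretch lies at chr11:60210472-60210651, ends at the base before the start, and belongs to the start site inside the gene, where the shorter SREBP1c form begins. The Fasn stretch lies at chr11:120824568-120824697, 21 to 150 bases before the start. Capitals mark CCAAT (the box bound by NF-Y, read on the other strand as ATTGG) and, in Srebf1, the letters GGTTACTNG in the reverse direction, which are shared by both known LXR elements of this promoter in mouse.
Srebf1: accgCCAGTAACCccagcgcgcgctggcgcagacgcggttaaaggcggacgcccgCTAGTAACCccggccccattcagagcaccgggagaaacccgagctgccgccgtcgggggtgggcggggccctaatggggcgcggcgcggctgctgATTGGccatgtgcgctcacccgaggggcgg
Fasn: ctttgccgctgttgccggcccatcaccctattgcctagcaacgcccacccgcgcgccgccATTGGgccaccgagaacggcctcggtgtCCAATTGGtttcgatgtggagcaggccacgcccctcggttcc
In the Fasn stretch the last run of capitals holds the box on both strands, overlapping itself. On both strands, CCAAT was present in 4 of the 9 member windows and in 33.8% of all 32851 windows of this length. The letters GGTTACTNG, chosen after the Srebf1 window had been read, were present in 1 of 9 and in 0.514% of all windows. A strict form of the sterol regulatory element, TCACNCCAC, was present in 0 of 9 and in 1.05% of all windows, and the E-box CACGTG in 0 of 9 and in 6.02%. Other forms of these 2 elements were not searched, so the missing letters do not show that the windows lack such elements. A match describes the letters and is not evidence of a bound factor.

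All 10 genes passed the filter on low counts and were tested. In the DMBA3-4 libraries, Srebf1 and Elovl6 were higher, Acly, Fasn, Fads1, Fads2 and Acsl3 were lower, and Acaca, Scd1 and Scd2 did not pass the test. The test was edgeR's quasi-likelihood test with Benjamini-Hochberg adjustment over all 11511 tested genes, at an adjusted p under 0.05. By this rule 60.1% of all tested genes changed (29.9% higher and 30.2% lower), so 7 of 10 is close to the background. Of the 10 genes, 4 had groups without overlap, against 32.2% of all tested genes. These were Srebf1, higher (17.0% of all tested genes), and Acly, Fads1 and Fads2, lower (15.2%). The median log2 fold change of the 10 genes was -0.32, against 0.00 over all tested genes, and their median size of change without sign was 0.59 against 0.57. Together they held 0.0980% to 0.116% of the counts of a DMBA3-4 library and 0.120% to 0.156% of a DMSO3-1 library. Without DMSO3-1 replicates 1 and 6 the test called 2 genes higher and 6 lower, against 63.4% of all genes tested in that fit. Without DMSO3-1 replicates 2 to 5 it called 0 higher and 3 lower, these being Acly, Fads1 and Fads2, against 36.9% of all genes tested there (18.5% higher and 18.4% lower).

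**Figure D1:**
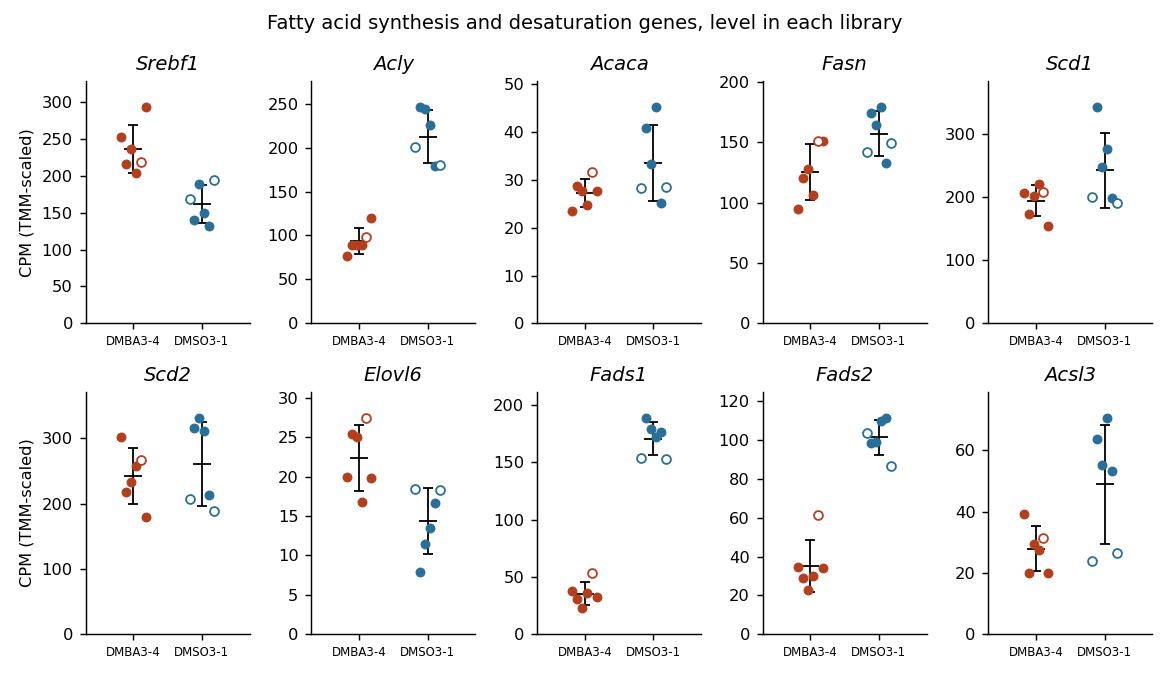
Level of each of the 10 genes in CPM (counts relative to library size, scaled by TMM) in 6 DMBA3-4 libraries (red) and 6 DMSO3-1 libraries (blue), 1 point per library, with the mean and SD in black and a separate axis for each gene. Open points are DMBA3-4 replicate 5 and DMSO3-1 replicates 1 and 6, and the groups are apart for Srebf1, Acly, Fads1 and Fads2.

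Srebf1 encodes the regulator itself (minus strand, chr11:60199089-60222581 in GRCm38). Its level was 203, 228 and 293 CPM (lowest, median and highest) in the DMBA3-4 libraries and 132, 159 and 195 CPM in the DMSO3-1 libraries. Every library of the first group lay above every library of the second. The means were 237 ± 32.6 and 162 ± 25.8 CPM (SD, n = 6 each), and the log2 fold change was 0.55 (SE 0.12, adjusted p = 0.0012), that is 1.46-fold higher. Against DMSO3-1 replicates 1 and 6 alone the log2 fold change was 0.33 (adjusted p = 0.0972). An exon of Rai1, a gene on the opposite strand, overlaps Srebf1, and since the strand setting of the counting was not given, reads of the overlap cannot be told apart. Rai1 had 13.7% to 40.6% as many counts as Srebf1 in the same library and its log2 fold change was -0.34 (adjusted p = 0.0513).

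Srebf2, the sterol-responsive relative, differed in the opposite direction. It was at 19.7, 25.7 and 56.1 CPM in the DMBA3-4 libraries and at 110, 184 and 240 CPM in the DMSO3-1 libraries. The groups were far apart, and the log2 fold change was -2.66 (SE 0.25, adjusted p = 7.88e-07). The ratio of Srebf1 to Srebf2 counts within each library, which does not depend on depth or scaling, is given as a description, since both genes were already apart in opposite directions. The ratio was 3.89, 9.71 and 10.8 (lowest, median and highest) in the DMBA3-4 libraries and 0.585, 0.856 and 1.54 in the DMSO3-1 libraries. Srebf1 counts exceeded Srebf2 counts in all 6 DMBA3-4 libraries and in 3 of the 6 DMSO3-1 libraries. The difference in mean log2 ratio was 3.25.

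**Figure D2:**
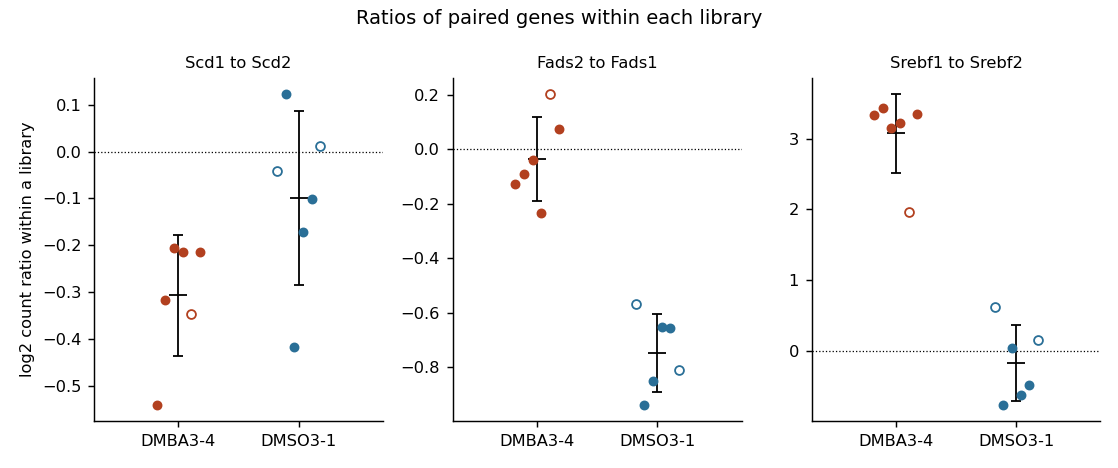
Log2 of the count ratio of 3 gene pairs within each library, 1 point per library, with the mean and SD in black and a separate axis per pair. Open points are DMBA3-4 replicate 5 and DMSO3-1 replicates 1 and 6. The groups do not overlap for Srebf1 to Srebf2 or Fads2 to Fads1, and do for Scd1 to Scd2.

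Of the 10 genes listed for control of the SREBP proteins, 8 were tested, and 2 rose and 5 fell (median log2 fold change -0.45). Over all tested genes 29.9% rose and 30.2% fell. Insig1, which retains the SREBP precursors, was at 21.3, 22.8 and 42.6 CPM in the DMBA3-4 libraries and at 148, 228 and 271 CPM in the DMSO3-1 libraries. All 6 libraries of the first group were below the lowest of the second (log2 fold change -3.04, SE 0.20, adjusted p = 7.33e-09). Mbtps2, the site-2 protease that releases the active fragment, was also lower without overlap (log2 fold change -1.68, SE 0.24, adjusted p = 2.58e-05), and Insig2 was lower with overlap (-0.56, SE 0.14, adjusted p = 0.00266). The 2 genes that rose, both with overlap, were Mbtps1, the site-1 protease (0.29, SE 0.09, adjusted p = 0.0122), and Mlx (0.54, SE 0.14, adjusted p = 0.00422). Scap, the escort of the precursors to the Golgi, had a log2 fold change of 0.02 (SE 0.15, adjusted p = 0.914). Nr1h3, which encodes LXR alpha, had 0 to 5 and 0 to 7 counts per library and was not tested. Nr1h2, which encodes LXR beta, was lower with overlap, at 98.4 ± 11.8 against 124 ± 9.96 CPM (SD, n = 6 each). Its log2 fold change was -0.34 (SE 0.10, adjusted p = 0.0104). Against DMSO3-1 replicates 1 and 6 alone, where 18.5% of all genes rose and 18.4% fell, 0 of these genes rose and 4 fell. There Mbtps2 was at -0.82 (adjusted p = 0.00756) and Insig2 no longer passed (adjusted p = 0.0612).

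Acly gives the acetyl-CoA for synthesis (chr11:100476353-100528000). Its level was 76.3, 89.3 and 120 CPM in the DMBA3-4 libraries and 179, 213 and 246 CPM in the DMSO3-1 libraries. No library of one group reached the range of the other. The means were 93.7 ± 14.6 and 212 ± 30.3 CPM (SD, n = 6 each), a 2.27-fold lower level (log2 fold change -1.18, SE 0.12, adjusted p = 1.31e-06). The change passed the test under all 22 alternatives, with log2 fold changes of -1.26 to -1.07.

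Acaca (chr11:84129672-84401651) had 23.4, 27.7 and 31.6 CPM in the DMBA3-4 libraries and 25.1, 30.9 and 45.2 CPM in the DMSO3-1 libraries. The groups overlapped, with DMSO3-1 replicates 2 and 4 highest. The log2 fold change was -0.30 (95% interval -0.63 to 0.04, adjusted p = 0.121). This value is uncertain, since 30.4% of the 50-base stretches of Acaca transcripts also occur in other genes, nearly all of them in the pseudogene Gm5182, which had 3 to 12 counts against 16 to 61.

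Fasn (chr11:120805846-120824547) had 94.8, 124 and 151 CPM in the DMBA3-4 libraries and 133, 157 and 179 CPM in the DMSO3-1 libraries. DMBA3-4 replicates 5 and 6 lay inside the range of the other group, and the other 4 libraries lay below it. The means were 125 ± 23.1 and 157 ± 18.5 CPM (SD, n = 6 each), and the log2 fold change was -0.33 (SE 0.13, adjusted p = 0.0366). The call was lost under 12 of 22 alternatives. Among them was leaving out any 1 of DMBA3-4 replicates 1 to 4 or of DMSO3-1 replicates 2 to 4 (adjusted p = 0.0599 to 0.108). It was kept, at -0.38, without DMBA3-4 replicate 5 (adjusted p = 0.0212) or replicate 6 (adjusted p = 0.0175). The call thus did not hold up against the choice of libraries.

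The supply of acetyl-CoA, citrate and NADPH was covered by 8 listed genes, 7 of them tested, of which 3 rose and 2 fell. Over all tested genes 29.9% rose and 30.2% fell. Mcat, the malonyl transferase of mitochondrial fatty acid synthesis, was at 13.6 ± 2.80 against 4.55 ± 1.67 CPM (SD, n = 6 each), without overlap. Its log2 fold change was 1.58 (SE 0.26, adjusted p = 8.47e-05), and 1.02 (adjusted p = 0.0145) against DMSO3-1 replicates 1 and 6 alone. The DMSO3-1 libraries held 8 to 25 counts of Mcat, so it passed the main filter on low counts only through the DMBA3-4 libraries. Its test and its lack of overlap are therefore not taken as support. Slc25a1, the carrier that exports citrate to Acly, was lower without overlap (45.7 ± 10.4 against 80.6 ± 11.9 CPM, log2 fold change -0.81, SE 0.16, adjusted p = 0.000331). Acss2, which makes acetyl-CoA from acetate, and Me1, the malic enzyme that yields NADPH, were higher, at log2 fold changes of 0.79 (adjusted p = 0.0229) and 0.73 (adjusted p = 0.00293). Both lost their call against DMSO3-1 replicates 1 and 6 alone (adjusted p = 0.0932 and 0.1001), and Acss2 also without DMBA3-4 replicate 1 (adjusted p = 0.0525).

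Elovl6 lengthens palmitate to stearate (chr3:129532355-129638495). It had 16.8, 22.5 and 27.5 CPM in the DMBA3-4 libraries and 7.91, 15.1 and 18.4 CPM in the DMSO3-1 libraries. All but 1 of the 6 libraries of the first group lay above the highest of the second. The log2 fold change was 0.64 (SE 0.21, adjusted p = 0.0145), and 0.24 (adjusted p = 0.433) against DMSO3-1 replicates 1 and 6 alone. Of 12 other elongases and elongation cycle genes 9 were tested, and 1 rose and 1 fell, beside 29.9% and 30.2% of all tested genes. Hacd4, a listed dehydratase family member and the gene that rose, was at 17.3 ± 3.18 against 5.82 ± 2.40 CPM (SD, n = 6 each), without overlap. Its log2 fold change was 1.57 (SE 0.25, adjusted p = 7.11e-05). The DMSO3-1 libraries held 8 to 32 counts of Hacd4, so it passed the main filter on low counts only through the DMBA3-4 libraries. Its test and its lack of overlap are therefore not taken as support. Tecr, the last reductase of the cycle, was lower at -0.28 (adjusted p = 0.0325) and lost its call under 10 of 22 alternatives, among them leaving out 1 of DMBA3-4 replicates 2, 3, 4 and 6 or of DMSO3-1 replicates 1 and 5 (adjusted p = 0.0551 to 0.0852).

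The desaturases of saturated chains, Scd1 (chr19:44394455-44407879) and Scd2 (chr19:44293674-44306864), lie 87590 bases apart. Scd1 had 155, 205 and 221 CPM in the DMBA3-4 libraries and 190, 225 and 343 CPM in the DMSO3-1 libraries, and Scd2 had 179, 245 and 302 CPM against 189, 262 and 332 CPM. Both overlapped between the groups, and DMSO3-1 replicates 2, 3 and 4 held the highest values of both genes within their group. The log2 fold change was -0.32 for Scd1 (95% interval -0.63 to -0.01, adjusted p = 0.0684) and -0.11 for Scd2 (95% interval -0.45 to 0.23, adjusted p = 0.574). Scd1 passed the test without DMSO3-1 replicates 1 and 6 (-0.44, adjusted p = 0.0130), and without replicate 1, 5 or 6 alone (adjusted p = 0.0316 to 0.0414). The Scd1 to Scd2 count ratio had medians of 0.832 and 0.952 (two-sided exact permutation p = 0.0476, also after adjustment over 3 ratios), and its call was lost when any library other than DMSO3-1 replicate 3 was left out (p = 0.0519 to 0.0952). Of 8 other desaturases and acyl-CoA synthetases, 4 were tested and 0 passed the test by edgeR's quasi-likelihood test, with 0 of them also at an unadjusted p under 0.05. Over all tested genes 60.1% passed at an adjusted p under 0.05.

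Fads1 and Fads2, the delta-5 and delta-6 desaturases of polyunsaturated fatty acids, differed most among the 10 genes. They are neighbours on chromosome 19 (Fads1 at chr19:10182888-10196877 on the plus strand, Fads2 at chr19:10062765-10101746 on the minus strand, 81141 bases apart). Fads1 had 23.2, 33.9 and 53.1 CPM in the DMBA3-4 libraries and 153, 174 and 189 CPM in the DMSO3-1 libraries. The lowest library of the second group stood well above the highest of the first. The means were 35.5 ± 9.98 and 171 ± 14.5 CPM (SD, n = 6 each), a 4.82-fold lower level (log2 fold change -2.27, SE 0.16, adjusted p = 1.50e-08). Fads2 had 22.6, 32.0 and 61.2 CPM in the DMBA3-4 libraries and 86.8, 101 and 112 CPM in the DMSO3-1 libraries, with DMBA3-4 replicate 5 the highest of its group for both genes. The means were 35.2 ± 13.4 and 101 ± 9.02 CPM (SD, n = 6 each), a 2.88-fold lower level (log2 fold change -1.53, SE 0.19, adjusted p = 6.45e-06). Both genes passed the test in the same direction under all 22 alternatives.

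Fads1 differed more than Fads2 by their ratio within libraries. The Fads2 to Fads1 count ratio was 0.850, 0.956 and 1.15 in the DMBA3-4 libraries and 0.521, 0.601 and 0.674 in the DMSO3-1 libraries. The groups did not overlap, and the difference in mean log2 ratio was 0.71 (two-sided exact permutation p = 0.00216, the smallest that 6 against 6 can give, and 0.00325 adjusted over 3 ratios).

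**Figure D3:**
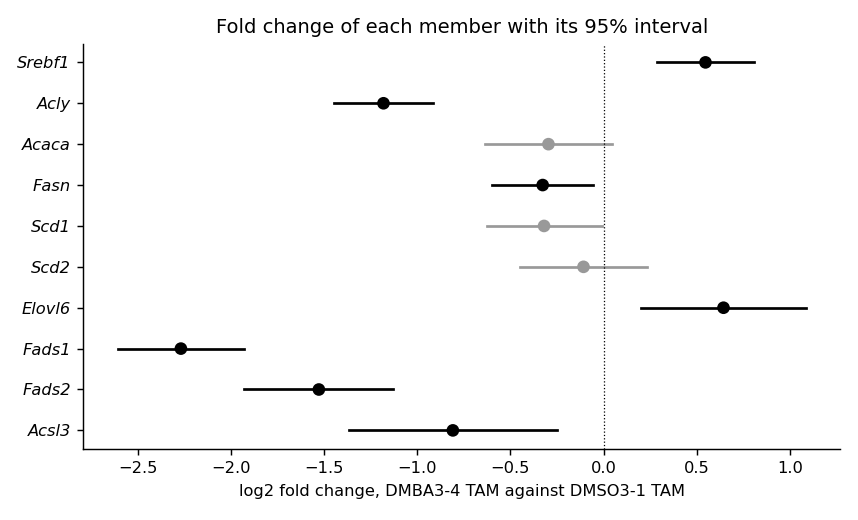
Log2 fold change of each of the 10 genes, DMBA3-4 libraries against the DMSO3-1 libraries (6 each), from edgeR. Lines are 95% intervals, black marks an adjusted p under 0.05 and grey marks the others. Fads1, at -2.27, lies farthest from 0, and Srebf1 and Elovl6 are the black points to the right of 0.

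Acsl3 activates fatty acids for lipid droplets and phospholipids (chr1:78657825-78707743). It had 19.97, 28.5 and 39.1 CPM in the DMBA3-4 libraries and 23.97, 54.3 and 70.7 CPM in the DMSO3-1 libraries. The second group was split, with DMSO3-1 replicates 1 and 6 at 23.97 and 26.4 CPM, inside the range of the first group, and replicates 2 to 5 at 53.2 to 70.7 CPM. Over all libraries the log2 fold change was -0.81 (SE 0.26, adjusted p = 0.0148), and against DMSO3-1 replicates 1 and 6 alone its direction turned, to 0.10 (adjusted p = 0.783). Acsl3 shares an exon with Utp14b, which had 5 to 12 and 7 to 29 counts.

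Compared per kb of exon, the order of levels differed between the groups. In the DMBA3-4 libraries, Scd2, Srebf1 and Scd1 were highest at 44.4 ± 7.79, 42.0 ± 5.79 and 39.8 ± 5.14 CPM per kb (SD, n = 6), and their ranges overlapped. Acly followed at 17.7 ± 2.76, then Fasn (11.4), Fads2 (10.7), Fads1 (7.37) and Acsl3 (6.41), each of which overlapped the next in level, and then Elovl6 (3.49) and Acaca (1.60), which were both apart from the gene above them. In the libraries labelled DMSO3-1 TAM the first 6 were Scd1 (49.7 ± 12.1), Scd2 (47.8), Acly (40.2), Fads1 (35.4), Fads2 (30.8) and Srebf1 (28.8 ± 4.58), each overlapping the next, followed by Fasn (14.4), Acsl3 (11.2), Elovl6 (2.23) and Acaca (1.96). Here only Srebf1 from Fasn and Acsl3 from Elovl6 were neighbours that did not overlap. Srebf1 thus stood in place 2 in the first group and place 6 in the second, and Fads1 in places 7 and 4. The authors' mean normalized count per kb, a single value over their libraries with no SD, had another order, with Acly first (837), then Fads1 (117), Scd2 (81.9), Srebf1 (59.6), Fads2 (28.3), Fasn (19.8), Acsl3 (12.4), Scd1 (9.0), Acaca (6.72) and Elovl6 (3.30). Scd1 thus stood in place 8 there, against place 3 and place 1 in the count table. The sources do not say that this mean was taken over the libraries of the count table, and the macrophage marker shares given above differ widely between the tables, so the orders may describe different samples.

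**Figure D4:**
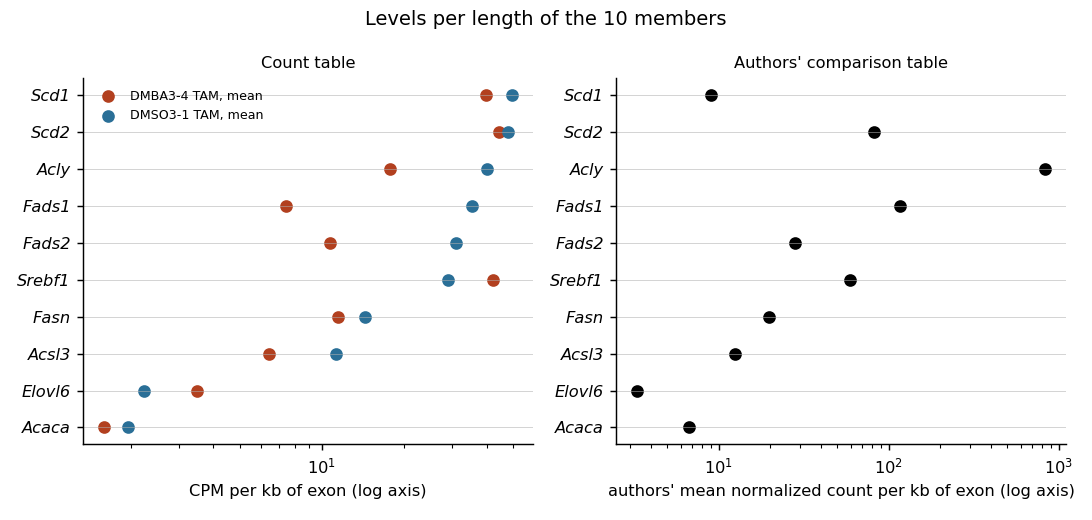
Levels of the 10 genes per kb of exon on log axes. The left panel gives mean CPM per kb in 6 DMBA3-4 libraries (red) and 6 DMSO3-1 libraries (blue), and the right panel the authors' mean normalized count per kb, in the order of the blue points. Acly leads on the right at 837, while Scd2 and Scd1 lead on the left.

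Genes that act around fatty acid synthesis were also counted. Over all 7 lists, 49 of 63 genes were tested, 13 rose, 14 fell and 22 did not pass (median log2 fold change 0.05), against the background of 29.9% higher and 30.2% lower. Of the 9 glycerolipid and lipid droplet genes 8 were tested, and 1 rose and 4 fell. Plin2, which coats lipid droplets, was at 122, 136 and 231 CPM in the DMBA3-4 libraries and at 252, 296 and 352.5 CPM in the DMSO3-1 libraries. The groups did not overlap (log2 fold change -0.99, SE 0.15, adjusted p = 4.13e-05). Gpam, which starts glycerolipid synthesis, and Lpin1, the phosphatidate phosphatase, were lower with overlap, at -0.85 (adjusted p = 0.0039) and -0.70 (adjusted p = 0.00242), and Agpat3, a lysophosphatidate acyltransferase, was higher without overlap at 0.59 (adjusted p = 0.00058). Gpam lost its call against DMSO3-1 replicates 1 and 6 alone (adjusted p = 0.127).

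Of the 12 fatty acid oxidation genes 11 were tested, and 6 rose and 1 fell, beside 29.9% higher and 30.2% lower over all tested genes. Against DMSO3-1 replicates 1 and 6 alone, 2 rose and 2 fell, beside 18.5% and 18.4% of all genes tested in that fit. Decr1, the mitochondrial reductase needed to oxidize polyunsaturated fatty acids, was at 30.7, 47.5 and 51.7 CPM in the DMBA3-4 libraries and at 1.43, 2.68 and 4.99 CPM in the DMSO3-1 libraries. Its log2 fold change, 3.88 (SE 0.27), was the largest among the genes of the 7 lists that passed the main filter. The DMSO3-1 libraries held only 4 to 17 counts of it, so it passed that filter through the DMBA3-4 libraries. Its test and its place are therefore not taken as support. Slc25a20, the carnitine-acylcarnitine carrier, was higher and Acadl, the long-chain acyl-CoA dehydrogenase, lower, both without overlap, at 0.64 (adjusted p = 0.00024) and -0.62 (adjusted p = 2.76e-05). Etfdh, which passes electrons from these dehydrogenases to ubiquinone, was higher at 0.60 (adjusted p = 0.00622), and at 0.15 (adjusted p = 0.493) against DMSO3-1 replicates 1 and 6 alone.

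Among 4 lipogenesis regulators 2 were tested, and Mid1ip1, a partner that promotes polymerization of acetyl-CoA carboxylase, was lower without overlap (33.3 ± 8.29 against 73.3 ± 9.68 CPM, SD, n = 6 each; log2 fold change -1.14, SE 0.16, adjusted p = 1.98e-05). Its paralog Thrsp, named after its values were seen, did not pass the main filter on low counts, and had 10 to 65 counts in the DMBA3-4 libraries and 0 to 2 in the DMSO3-1 libraries. It was tested under 12 of the 22 alternatives, which kept it by another filter or with libraries left out. Chosen by its values and kept through its DMBA3-4 counts, it could only come out higher there. Those tests are therefore no support, and their p-values are not given.

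**Figure D5:**
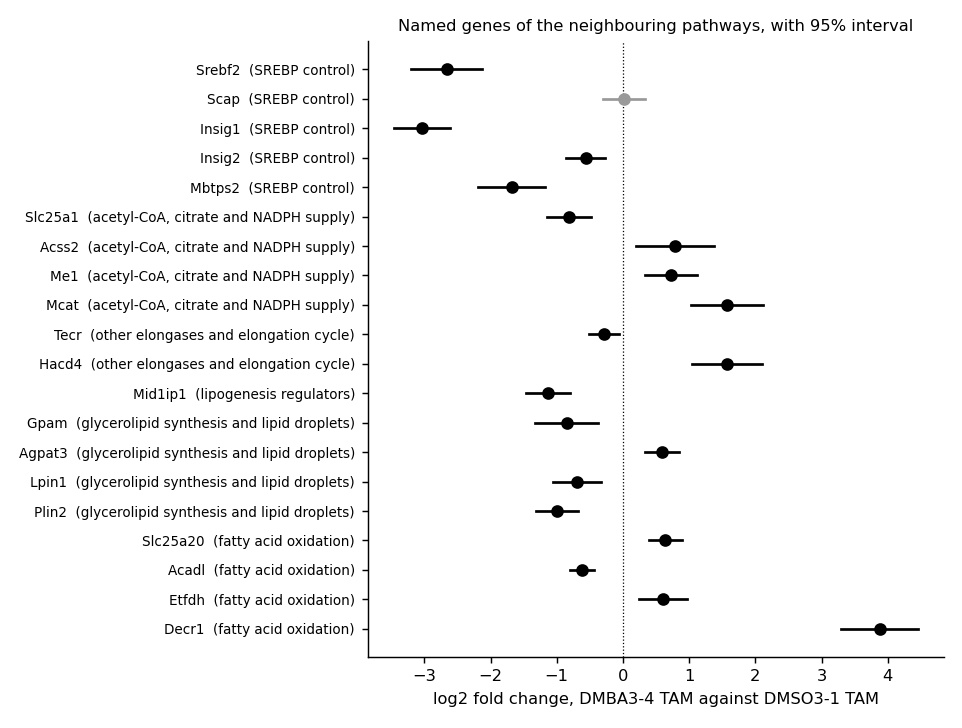
Log2 fold change of the named genes of the surrounding lists, DMBA3-4 libraries against the DMSO3-1 libraries (6 each), from edgeR, with the list of each gene in parentheses. Lines are 95% intervals, black marks an adjusted p under 0.05 and grey the other gene, Scap. Decr1 lies farthest to the right at 3.88, and Insig1 farthest to the left at -3.04.

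The genes most like Srebf1, Fasn and Scd1 over the 12 libraries were sought among 9142 tested genes, by the root mean square difference of centred log2(CPM + 1) profiles. For Srebf1 these were Abhd16a (0.114), Spsb2 (0.119) and Traf3ip2 (0.123), and its nearest fellow among the 10 genes was Elovl6 (0.361). For Fasn they were Usp10 (0.117), Ywhab (0.119) and Arfgap1 (0.122), with Acaca the nearest fellow (0.151). For Scd1, Specc1l (0.133) and Osbpl1a (0.138) were among them, with Scd2 the nearest fellow (0.178). The median difference over all candidates was 0.481 for Srebf1, 0.475 for Fasn and 0.485 for Scd1.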

How the data were processed

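RNA was measured in 12 libraries in 2 groups of 6, grouped by their labels. The authors deposited whole-number counts per gene, not normalized. The submitters' processing notes name GRCm38 (mm10), while the sources used here give no aligner or counter. A further table deposited by the authors holds their comparison, of which the mean normalized count (a size-factor-scaled signal over their libraries) was used. Its log2 fold changes, standard errors, test scores and p-values were not used, nor was their list of changed genes.

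The 19 entries without a gene name (0.0893% to 0.128% of counts) were left out. In R 4.3.3, edgeR 4.0.16 with filterByExpr, TMM and robust quasi-likelihood tests compared the groups. The biological coefficient of variation was 23.3%. CPM were scaled by TMM, and ratios used a pseudocount of 1. Intervals are 95% from the fit. No pair of libraries within a group differed by as little as sampling noise, but some pairs were much closer than others. The chi-square per gene ran from 2.69 (DMBA3-4 replicates 2 and 3) to 35.1 (DMSO3-1 replicates 1 and 4). It was 4.26 for DMSO3-1 replicates 2 and 4 and 4.98 for DMSO3-1 replicates 1 and 6. Whether close libraries share a source was not tested. The test was checked on simulated counts with a small share of changed genes, as many raised as lowered, and independent libraries. In these data 60.1% of tested genes changed and some libraries were closer than others, so the check does not cover this setting. Alternatives were DESeq2 1.42.0, limma-voom (limma 3.58.1), other scalings and filters, a replicate block and leaving out libraries. Lengths, coordinates and shared stretches are from GENCODE M21, promoters from RefSeq. Members, lists, tests, alternatives and rules for named genes (all members, up to 4 changed genes per list by size, Srebf2, Insig1, Scap and Nr1h3, and 3 genes most like Srebf1, Fasn and Scd1 at a mean of at least 10 CPM) were chosen with earlier results of these data known. One of the genes most like Scd1 is not reported here.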

Additional observations from a re-analysis of the deposited data

Results flagged for a closer look

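In 26 groups of 6 libraries (each gene or ratio in each group) the library farthest from the rest was compared with the others by Dixon's ratio of gap to range, at its 95% critical value. This flags about 1 in 20 groups by chance, and 2 of the 26 were flagged, both in DMBA3-4 replicate 5. Fads2 was at 61.2 CPM in that library, against 22.6 to 34.5 CPM in the other 5 libraries of its group (gap over range 0.693). The log2 ratio of Srebf1 to Srebf2 counts was 1.96 there, against 3.14 to 3.43 in the other 5 (gap over range 0.804). Without this library the Fads2 log2 fold change was -1.75 and the difference in log2 ratio was 3.48, both in the same direction as with it.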

How the results depend on the processing

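Over 22 alternatives Acly, Fads1 and Fads2 kept their direction and their call. Leaving out DMSO3-1 replicates 2 to 5 changed the most. The number of changed genes then fell from 6918 to 4605, the log2 fold changes of Srebf1 (0.33, adjusted p = 0.0972), Elovl6 (0.24, adjusted p = 0.433) and Fasn (-0.27, adjusted p = 0.224) no longer passed, and Acsl3 turned to 0.10 (adjusted p = 0.783). The difference in log2 ratio of Srebf1 to Srebf2 was 2.69, and those of Fads2 to Fads1 (0.66) and Scd1 to Scd2 (-0.29) each had an exact permutation p of 0.0714, the smallest that 6 against 2 libraries allow. Without DMSO3-1 replicates 1 and 6, Scd1 passed at -0.44 (adjusted p = 0.0130) and Scd1 to Scd2 did not (-0.16, exact permutation p = 0.181). Fasn lost its call with upper-quartile scaling (-0.24, adjusted p = 0.118), without TMM (-0.26, adjusted p = 0.112) and with no filter (-0.28, adjusted p = 0.127). With 1 library left out, values ranged from -0.38 to -0.24 for Fasn (7 of 12 losing the call), from -0.37 to -0.20 for Acaca (passing without DMSO3-1 replicate 5, adjusted p = 0.0497), from -0.38 to -0.20 for Scd1 (3 of 12 passing) and from -0.27 to -0.16 for Scd1 to Scd2. The causes were not tested, beyond the smaller number of libraries. Upper-quartile scaling moved the median of all genes by 0.08 and no filter by -0.13 on the log2 scale, and with no filter 33387 genes were tested.

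The replicate numbers did not pair the libraries: same-numbered libraries correlated at -0.158 to 0.129 in their deviations from the group means, and 0 of 6 matched best with their own number. With the replicate block 6481 genes changed, and Fasn (-0.34, adjusted p = 0.0592) alone of the 10 genes lost its call. Depth limits Nr1h3, with at most 7 counts in a library.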
